A study of Mus musculus with 12 samples.

Results

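The transcripts of 10 genes of the Eph and ephrin family were followed in mouse fibroblasts driven toward motor neurons: 4 receptors of class A (Epha2, Epha3, Epha4 and Epha7), 3 receptors of class B (Ephb2, Ephb3 and Ephb4), the class A ligand Efna1 and the class B ligands Efnb1 and Efnb2. They were taken by gene symbol from a table of 23077 genes, which holds 22 Eph receptors and ephrins in all. All 10 were among the 14207 genes that passed a filter on low values, which asked for 3 libraries or more at 10 or above.

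All samples were primary mouse embryonic fibroblasts carrying the Hb9::GFP reporter, in which GFP marks cells that switch on a motor neuron promoter, and all received a retrovirus for NIL, the motor neuron factors Ngn2, Isl1 and Lhx3 joined by 2A peptides. RISDD cells also received HRAS(G12V)-IRES-SDD, with constitutively active HRAS ahead of the internal ribosome entry site (IRES), SDDIR cells received SDD-IRES-HRAS(G12V), with HRAS after it, and SDD cells received SDD alone, a SNAP-tagged dominant-negative p53 (p53DD). NIL cells received no second construct. The medium of every group was switched 3 days after infection to N3, with N2, B27, BDNF, GDNF, CNTF and FGF. RepSox, an inhibitor of TGF-beta receptor kinase, was added from that day to RISDD, SDDIR and SDD but not to NIL. At 4 days, live single cells were sorted from NIL and SNAP-positive cells from the other groups, and polyA RNA of the sorted cells was sequenced. SDD against NIL therefore compares p53DD, RepSox and the SNAP sort together, and these cannot be told apart. RISDD and SDDIR against NIL compare HRAS together with all of these, and there too the parts cannot be told apart. Libraries A, B and C were analysed for RISDD, SDD and NIL and A and B for SDDIR, 11 in all. The labels also list an SDDIR C, not analysed here: the heading of SDDIR B stands on 2 identical columns, and whether the values called SDDIR B here belong to B or C cannot be told apart.

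Eph receptors are tyrosine kinases of the cell surface and ephrins are their ligands on neighbouring cells. Class A ephrins hang on a lipid anchor and class B ephrins span the membrane, so that binding at a cell contact can signal into both cells. Much of this signalling is repulsive: it turns axons, keeps cell populations apart and, in spinal motor neurons, helps limb-bound axons choose their path. EPHA2 is also known in tumour cell lines as a receptor gene that rises with RAS and ERK signalling, and it can lower that signalling when its ligands bind.

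The starts of 3 genes are shown because the results turn on them: Epha2 as the member with the largest rise, Epha4 with the largest fall in SDDIR and Ephb2 with a fall in both HRAS groups. Each sequence holds 250 bases before and 50 after the RefSeq transcript start in GRCm38.p6, 5′ to 3′ on the gene's strand. The deposited values were made with GRCm39, so these positions belong to RefSeq's build and not to the expression table.
Epha2, chr4:141300971-141301270, plus strand: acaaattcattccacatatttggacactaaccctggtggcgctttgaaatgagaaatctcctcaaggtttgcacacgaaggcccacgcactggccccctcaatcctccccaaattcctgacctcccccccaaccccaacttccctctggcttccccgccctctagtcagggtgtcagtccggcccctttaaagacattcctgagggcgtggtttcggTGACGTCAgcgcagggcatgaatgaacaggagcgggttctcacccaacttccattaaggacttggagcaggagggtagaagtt
Epha4, chr1:77515039-77515338, minus strand: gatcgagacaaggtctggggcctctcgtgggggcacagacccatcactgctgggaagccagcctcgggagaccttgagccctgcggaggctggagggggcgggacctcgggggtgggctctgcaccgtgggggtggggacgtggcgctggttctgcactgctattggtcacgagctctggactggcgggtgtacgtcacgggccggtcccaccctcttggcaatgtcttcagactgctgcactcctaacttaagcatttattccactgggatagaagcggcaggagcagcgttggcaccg
Ephb2, chr4:136835963-136836262, minus strand: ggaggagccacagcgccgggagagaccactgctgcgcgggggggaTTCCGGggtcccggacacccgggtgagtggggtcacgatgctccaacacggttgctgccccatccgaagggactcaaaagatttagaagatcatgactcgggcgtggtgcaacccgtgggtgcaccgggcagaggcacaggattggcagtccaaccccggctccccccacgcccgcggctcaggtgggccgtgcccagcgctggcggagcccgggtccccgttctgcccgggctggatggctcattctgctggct
Capitals mark letters searched on both strands: TGANTCA (an AP-1 motif), CCGGAA (an ETS core) and TGACGTCA (a cyclic AMP response element). The last was added after the windows had been read. TGACGTCA begins 33 bases before the Epha2 start, and 1.79% of 32851 mouse promoters of the same length hold it. The ETS core lies on the opposite strand from 205 bases before the Ephb2 start, and 14.9% of promoters hold it. TGANTCA, found in 7.81% of promoters, occurred at no start of the 10 genes, and no motif was found in the Epha4 window.

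Values below are gene counts that the authors divided by a constant for each library, called scaled counts here; they recover to 14872639 to 29815073 whole reads per library. Changes were tested with limma on log2(scaled count + 1) over all 4 groups, with p-values adjusted over the 14207 genes tested (Benjamini-Hochberg), and a gene was called changed at an adjusted p under 0.05. Folds are on that log scale, which understates the change of low genes. The 6 comparisons share groups, so their results are not independent of one another. The Trp53 row, the gene that p53DD derives from, held 43130 to 46180 scaled counts in RISDD and 29280 and 37070 in SDDIR. It held 32350 to 40360 in SDD and 2873 to 3674 in NIL. The row of the NIL factor Neurog2 held 57910 to 59720 in RISDD, 39670 and 52580 in SDDIR and 60590 to 79070 in SDD. RISDD and SDDIR thus differed in these rows as well as in the place of HRAS, and the part of these differences was not tested. The Hras row was higher in RISDD than in any SDDIR or SDD library but overlapped NIL, with 1088 to 1234 in RISDD, 911 to 933 in SDDIR, 829.9 to 981 in SDD and 1129 to 2342 in NIL. NIL C and SDD A stood apart from the other libraries. NIL C had 0.537% of its signal in mitochondrial genes, against 2.60 to 4.04% in the other 10 libraries, and 167300 scaled counts of Neurog2 (a NIL factor), against 39670 to 79070. It was also the highest NIL library for all 7 members whose transcript GC content lay above the median of tested genes (49.97%), and the lowest for 2 of the 3 members below it. SDD A had the highest summed motor neuron markers of the SDD group, 14480 against 4813 in SDD B and 7626 in SDD C. For the 10 genes, calls that were lost or gained without either library are given beside the gene or with the counts.

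Epha2, a receptor known from epithelia and from many tumours, was the member with the widest range. It held 3543, 3418 and 3636 scaled counts in RISDD A, B and C, 849 and 984 in SDDIR A and B, 202, 504 and 342 in SDD A, B and C, and 431, 826 and 942 in NIL A, B and C. RISDD libraries were tightly grouped and lay above every other library, and SDDIR lay above SDD without overlap. Epha2 rose 10.8-fold in RISDD against SDD (log2 change 3.43, SE 0.34, adjusted p = 2.07e-05), 2.79-fold in SDDIR against SDD (1.48, SE 0.38, adjusted p = 0.0169) and 3.86-fold in RISDD against SDDIR (1.95, SE 0.38, adjusted p = 0.0105). Against NIL it rose 5.07-fold in RISDD (2.34, SE 0.34, adjusted p = 2.90e-04), while SDDIR and NIL overlapped (1.31-fold, adjusted p = 0.443). The rise in RISDD against SDD or NIL was called under each of 25 alternative settings. The call of SDDIR against SDD was lost without SDDIR A, SDDIR B or SDD A (adjusted p = 0.0783, 0.122 and 0.0507; 0.00152 to 0.122 over the alternatives), and that of RISDD against SDDIR without SDDIR A or SDDIR B (adjusted p = 0.109 and 0.0659; 1.16e-06 to 0.109 over the alternatives).

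**Figure D1:**
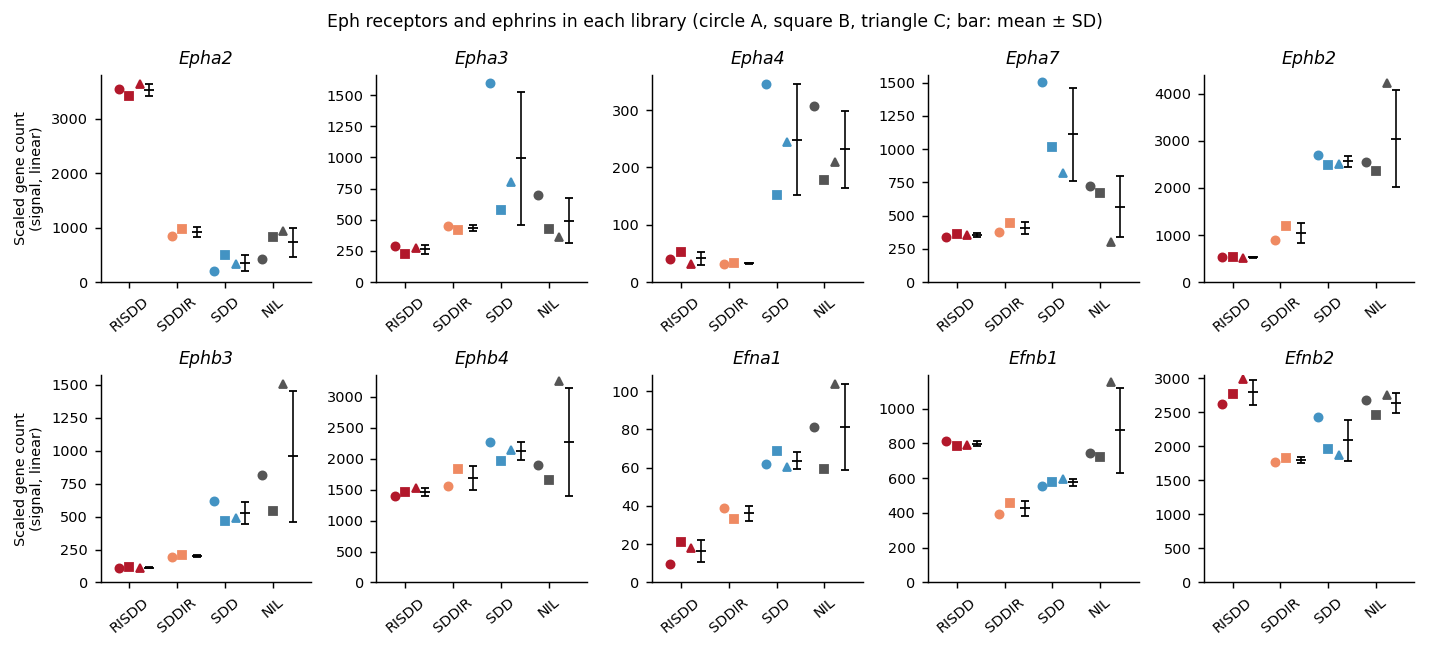
Scaled counts (linear axis from 0) of the 10 genes in each library of RISDD, SDDIR, SDD and NIL; circles, squares and triangles are libraries A, B and C, and the black bar is the mean ± SD. Epha2 stands at 3418 to 3636 in RISDD and at 984 or below in every other library, whereas Epha4, Ephb2 and Ephb3 are lower in RISDD and SDDIR than in any SDD or NIL library.

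Epha4, a receptor that in the mouse spinal cord steers axons of lateral motor neurons dorsally in the limb, was low in both HRAS groups. Its scaled counts were 39.6, 52.6 and 31.6 in RISDD, 32.2 and 33.2 in SDDIR, 346, 153 and 245 in SDD, and 307, 178 and 210 in NIL (libraries A, B and C in order). Every RISDD and SDDIR library lay below every SDD and NIL library, and the nearest were RISDD B at 52.6 and SDD B at 153. It fell 5.70-fold in RISDD (log2 change -2.51, SE 0.33, adjusted p = 1.40e-04) and 7.01-fold in SDDIR (-2.81, SE 0.37, adjusted p = 4.71e-04), both against SDD. Against NIL it fell 5.47-fold in RISDD (adjusted p = 1.76e-04) and 6.73-fold in SDDIR (adjusted p = 4.06e-04). These 4 calls held under all 25 alternatives. RISDD and SDDIR overlapped and were not told apart by the test (log2 difference 0.30, 95% interval -0.51 to 1.11), and neither were SDD and NIL (log2 difference 0.06, 95% interval -0.67 to 0.78).

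Epha3, whose kinase guides axons and which is also found on embryonic mesenchyme, had 293, 222 and 272 scaled counts in RISDD, 451 and 420 in SDDIR, 1596, 581 and 805 in SDD, and 695, 427 and 359 in NIL. All RISDD libraries lay below all others, and SDD A lay far above the other SDD libraries. Epha3 fell 3.47-fold in RISDD against SDD (log2 change -1.79, SE 0.34, adjusted p = 0.00175), a call kept under every alternative and equal to -1.39 without SDD A. In SDDIR against SDD it was 2.08-fold lower without passing the test (log2 change -1.06, adjusted p = 0.0759). That change was -0.65 without SDD A, and it passed without NIL C (adjusted p = 0.04997) or SDD B and with the replicate block (adjusted p = 0.0225), DESeq2, array weights or GC correction (adjusted p = 0.0167 to 0.278 over the alternatives). Epha7, a receptor that shapes cortical and spinal wiring and has a truncated form without the kinase, had 340.1, 365 and 356 in RISDD, 375 and 442 in SDDIR, 1502, 1014 and 823 in SDD, and 726, 669 and 305 in NIL. RISDD and SDDIR values lay close together, below every SDD library but not below NIL C. Epha7 fell 3.05-fold in RISDD (-1.61, SE 0.31, adjusted p = 0.00194) and 2.64-fold in SDDIR (-1.40, SE 0.35, adjusted p = 0.0157) against SDD. The SDDIR call was lost without SDDIR A, SDDIR B or SDD A (adjusted p = 0.121, 0.0695 and 0.0595; 7.58e-05 to 0.121 over the alternatives).

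Among the class B receptors, Ephb2 and Ephb3 fell in both HRAS groups against SDD and against NIL. Ephb2, which takes part in axon guidance and excitatory synapse formation, held 544, 529 and 516 scaled counts in RISDD, 900.3 and 1193 in SDDIR, 2694, 2488 and 2510.2 in SDD, and 2551, 2357 and 4223 in NIL. The groups RISDD, SDDIR and SDD formed 3 separate steps, and NIL C lay far above the SDD and the other NIL libraries. Ephb2 fell 4.83-fold in RISDD (log2 change -2.27, SE 0.20, adjusted p = 1.08e-05) and 2.47-fold in SDDIR (-1.31, SE 0.23, adjusted p = 0.00240) against SDD, and 5.54-fold in RISDD (adjusted p = 7.22e-06) and 2.84-fold in SDDIR (adjusted p = 8.20e-04) against NIL. All 4 calls held under the 25 alternatives. It also fell in RISDD against SDDIR, by 1.95-fold (-0.97, SE 0.23, adjusted p = 0.0245), a call lost without any one RISDD or SDDIR library (adjusted p = 0.0715 to 0.215; 2.21e-05 to 0.215 over the alternatives). Ephb3 (-0.84) and Efna1 (-1.15) did not pass there (adjusted p = 0.152 and 0.0772) but did without NIL C (adjusted p = 0.00604 and 0.0254; 3.33e-04 to 0.441 and 0.0108 to 0.364 over the alternatives).

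Ephb3, which acts beside Ephb2 in axon guidance and in sorting intestinal epithelium, had 110.1, 114 and 109 scaled counts in RISDD, 193 and 205 in SDDIR, 619, 469.95 and 489.6 in SDD, and 819, 546 and 1506 in NIL. The order was the same as for Ephb2, with NIL C again the highest. It fell 4.67-fold in RISDD (log2 change -2.22, SE 0.30, adjusted p = 1.66e-04) and 2.62-fold in SDDIR (-1.39, SE 0.33, adjusted p = 0.0126) against SDD, the second of which was lost without SDDIR A or SDDIR B (adjusted p = 0.0903 and 0.0728; 6.00e-06 to 0.0903 over the alternatives). Against NIL it fell 7.83-fold in RISDD (-2.97, adjusted p = 2.61e-05), or by 2.58 on the log2 scale without NIL C, and 4.39-fold in SDDIR (-2.13, adjusted p = 9.81e-04).

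Ephb4, the receptor of venous endothelium that pairs with Efnb2, had the narrowest range of group means of the 10 (0.56 on the log2 scale). It had 1405, 1462 and 1532.5 scaled counts in RISDD, 1553 and 1829 in SDDIR, 2269, 1971 and 2143 in SDD, and 1893, 1649 and 3263 in NIL. RISDD lay below SDD and NIL without overlap, yet no comparison passed the test (RISDD against SDD 1.45-fold lower, adjusted p = 0.0699; RISDD against NIL 1.48-fold lower, adjusted p = 0.0535). Without NIL C both passed, at log2 changes of -0.53 and -0.27 (adjusted p = 3.61e-04 and 0.0364, with 6.43e-05 to 0.179 and 0.0131 to 0.138 over the alternatives). In all they passed under 6 and 8 of the 25 alternatives, with quantile scaling and GC correction among both. SDDIR against SDD (-0.33, adjusted p = 0.380) passed without NIL C as well (adjusted p = 0.0190; 0.0164 to 0.773 over the alternatives).

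The class A ligand Efna1, which binds EPHA2 with high affinity, fell in RISDD, where that receptor rose. Its scaled counts were 9.89, 21.2 and 18.2 in RISDD, 39.0 and 33.2 in SDDIR, 62.0, 68.7 and 60.2 in SDD, and 81.4, 59.1 and 104 in NIL. RISDD, SDDIR and SDD again formed 3 steps without overlap, at levels where a library counts few reads. Efna1 fell 3.87-fold in RISDD against SDD (log2 change -1.95, SE 0.33, adjusted p = 7.43e-04) and 4.82-fold in RISDD against NIL (-2.27, SE 0.33, adjusted p = 2.94e-04), both under all 25 alternatives. It fell 2.17-fold in SDDIR against NIL (adjusted p = 0.0377), a call lost under 13 alternatives, among them without NIL C, NIL A or any SDD or SDDIR library, RISDD C left out, the replicate block and quantile scaling (adjusted p = 0.00636 to 0.180 over the alternatives). SDDIR against SDD was 1.75-fold lower and did not pass (adjusted p = 0.151).

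The class B ligands Efnb1 and Efnb2 were higher in RISDD than in SDDIR. Efnb1, an X-linked ligand that marks cell boundaries, had 814, 787 and 789.6 scaled counts in RISDD, 396 and 455 in SDDIR, 555, 579 and 596 in SDD, and 747, 722 and 1155 in NIL. SDDIR was the lowest group, then SDD, and RISDD lay inside the range of NIL. Efnb1 rose 1.88-fold in RISDD against SDDIR (log2 change 0.91, SE 0.19, adjusted p = 0.0163) and fell 2.01-fold in SDDIR against NIL (-1.01, SE 0.19, adjusted p = 0.00298). The first call was lost without any one RISDD or SDDIR library (adjusted p = 0.0550 to 0.155; 8.77e-06 to 0.155 over the alternatives) and the second when only these groups were fitted (adjusted p = 0.0725; 1.26e-05 to 0.0725 over the alternatives). Its 1.38-fold rise in RISDD against SDD passed narrowly (adjusted p = 0.04998) and was lost under 15 of 25 alternatives, every leave-out of a RISDD, SDDIR or SDD library included (adjusted p = 9.82e-05 to 0.128 over the alternatives).

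Efnb2, the ligand of arterial endothelium and a guidance cue for motor axons, had 2621, 2776 and 2989.9 scaled counts in RISDD, 1768 and 1832 in SDDIR, 2436, 1963 and 1871 in SDD, and 2682, 2468 and 2752 in NIL. RISDD lay above SDDIR and SDD and overlapped NIL. It rose 1.55-fold in RISDD against SDDIR (log2 change 0.63, SE 0.14, adjusted p = 0.0189) and 1.35-fold in RISDD against SDD (0.43, SE 0.12, adjusted p = 0.0182), and fell 1.46-fold in SDDIR against NIL (-0.55, SE 0.14, adjusted p = 0.0130). The RISDD calls were lost without RISDD B or RISDD C (adjusted p = 0.0544 and 0.0773 against SDD, 0.0671 and 0.0777 against SDDIR), and also without SDD B or SDD C against SDD (0.0678 and 0.0798) or without SDDIR A or SDDIR B against SDDIR (0.151 and 0.105). Over all alternatives the adjusted p ran from 4.32e-05 to 0.0798 against SDD and from 1.57e-04 to 0.151 against SDDIR. The call of SDDIR against NIL was lost without SDDIR A or SDDIR B, and with these groups fitted alone (adjusted p = 0.0931, 0.0656 and 0.107; 6.66e-04 to 0.107 over the alternatives).

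**Figure D2:**
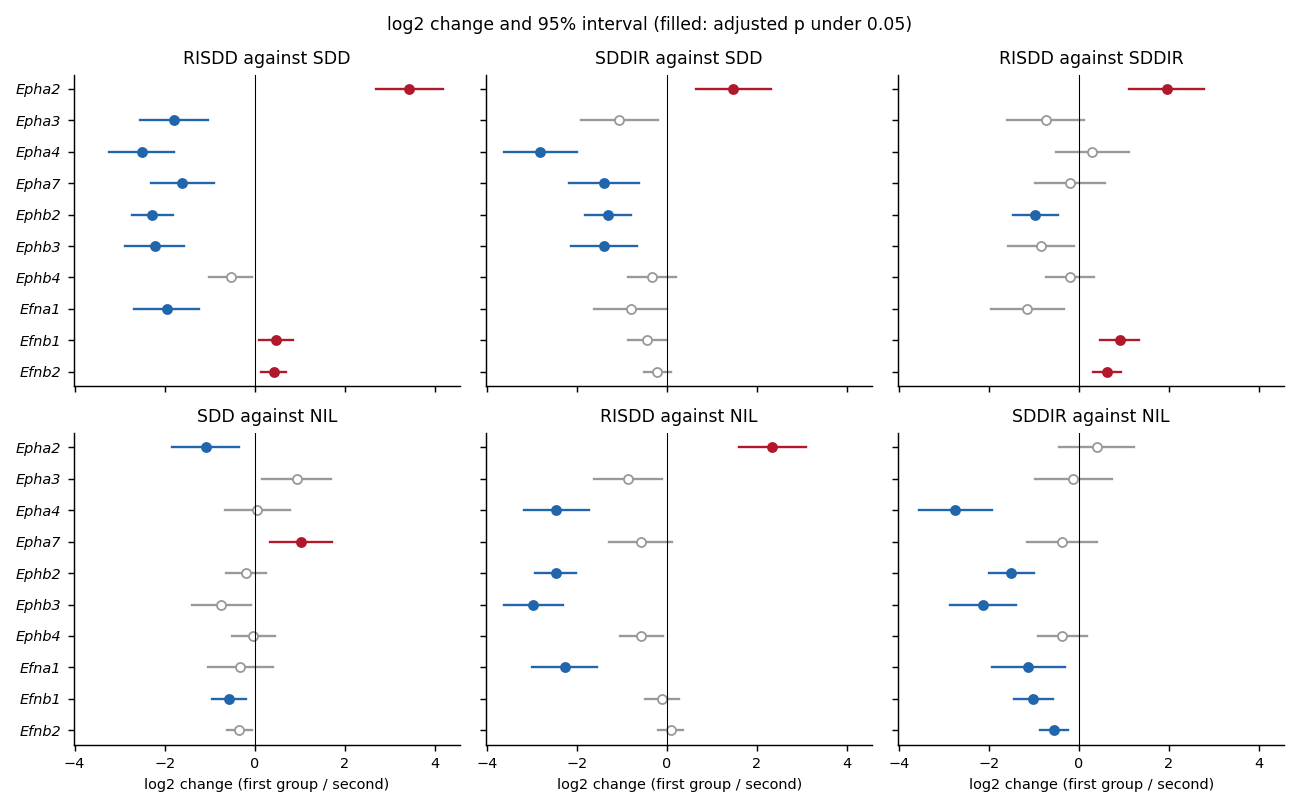
log2 change of each of the 10 genes in the 6 comparisons (first group over second), with 95% intervals; filled points passed at an adjusted p under 0.05, red for higher and blue for lower. In RISDD against SDD, Epha2 is at 3.43 while the other receptors lie between -2.51 and -0.53, and in RISDD against SDDIR the rises of Epha2, Efnb1 and Efnb2 are at 1.95, 0.91 and 0.63.

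Counted over the 10 genes, 3 rose and 6 fell in RISDD against SDD, where 42.6% of all tested genes changed (20.0% higher, 22.6% lower). In SDDIR against SDD 1 rose and 4 fell, against 22.5% of tested genes changed (8.66% higher, 13.9% lower). Of all genes called there, 1230 were higher and 1969 lower, and with quantile scaling 1718 were higher and 1790 lower. In RISDD against SDDIR 3 rose and 1 fell, against 9.69% changed (4.64% higher, 5.05% lower). The median log2 change of the 10 genes was -1.70 in RISDD against SDD, beside 0.02 over all tested genes, and -0.93 in SDDIR against SDD, beside 0.01. In RISDD against SDDIR it was -0.20, beside 0.01. Without SDDIR A or SDDIR B, 2 of the 10 genes were called in SDDIR against SDD. In RISDD against SDDIR limma then called 0, with 4 genes without SDDIR A and 5 without SDDIR B at an unadjusted p under 0.05. It called 1 without RISDD B or RISDD C and 2 without RISDD A. Without NIL C, 8 were called in SDDIR against SDD, with Epha3, Ephb4 and Efnb1 (-0.44, adjusted p = 0.00239; 7.63e-04 to 0.498 over the alternatives) added, and 6 in RISDD against SDDIR. Over all genes the calls then numbered 6336 and 4186, against 3199 and 1377 with it. No NIL library enters the log2 changes of these comparisons, and those of the 10 genes were the same without NIL C. The main fit, however, estimates the spread of each gene over all 4 groups, NIL C included.

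Against NIL, RISDD had 1 rise and 4 falls among the 10 genes, where 46.7% of tested genes changed (23.2% higher, 23.5% lower), and a median of -0.72 beside 0.05. SDDIR had 0 rises and 6 falls, where 33.5% changed (15.3% higher, 18.2% lower), and a median of -0.78 beside 0.03. Without NIL C, Epha3, Epha7 and Ephb4 were also called lower in RISDD (log2 changes -1.06, -0.98 and -0.27), for 8 called genes in all, and Epha7 in SDDIR (-0.77, adjusted p = 0.0171; 0.00503 to 0.773 over the alternatives). Over all genes, 8416 were then called in RISDD and 6868 in SDDIR, against 6629 and 4759 with NIL C. Without SDD A, Epha3 was called lower in RISDD (-0.86, adjusted p = 0.0208; 0.00518 to 0.196 over the alternatives). In SDD against NIL, 1 gene rose and 2 fell, where 17.6% of tested genes changed (9.32% higher, 8.26% lower), with a median of -0.26 beside 0.05. Epha7 rose 2.04-fold in SDD (log2 change 1.03, SE 0.31, adjusted p = 0.0468), Epha2 fell 2.13-fold (-1.09, SE 0.34, adjusted p = 0.0492) and Efnb1 fell 1.48-fold (-0.57, SE 0.17, adjusted p = 0.0458). These 3 calls were lost under 14, 15 and 12 of the 25 alternatives, without SDD A in each case (adjusted p = 0.165, 0.162 and 0.125; 0.0143 to 0.175, 0.0101 to 0.183 and 0.00968 to 0.180 over the alternatives), and that of Epha2 also without NIL C (0.119). By limma the count was 0 without any one RISDD or SDDIR library (6 at an unadjusted p under 0.05 each time) or without SDD C (4), 1 without SDD A, which was Efnb2 (-0.46, adjusted p = 0.0403, against 0.0838 with it; 0.0334 to 0.262 over the alternatives), and 2 without NIL C or SDD B. Without NIL C the change of Epha7 was 0.63 and that of Efnb1 -0.35, both still called. With the replicate block, which pairs libraries of the same letter, Epha3 was also called higher in SDD (log2 change 0.93, adjusted p = 0.0342, against 0.0862 without the block; 0.0270 to 0.311 over the alternatives).

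The sums of some cell type markers followed the order of single members, and others did not. Summed fibroblast markers (10 genes, Col1a1 and Dcn among them) ran from 95940 to 99700 scaled counts in RISDD, 168900 to 176200 in SDDIR, 562900 to 698100 in SDD and 743600 to 1087000 in NIL, so the order was that of Ephb2 and Ephb3. Summed epithelial markers (10 genes) ran from 8758 to 12810 in RISDD, 2435 to 3781 in SDDIR, 66.7 to 75.6 in SDD and 925 to 1034 in NIL, the order of mean Epha2. Krt18 held the larger part of the RISDD sums: it held 6064 to 8402 in RISDD and 6.14 to 20.3 in SDD. Epcam, a defining epithelial marker, held 51.6 to 71.7 in RISDD and 1.93 to 9.22 in SDD, and Cdh1, the other, held 71.7 to 314.5 in RISDD and was at 0 in all SDD libraries. Of the 8 epithelial markers tested, 8 rose in RISDD against SDD, and of the 10 fibroblast markers 9 fell. Of all tested genes, 20.0% rose and 22.6% fell there. Motor neuron markers summed to 859 to 1025 in RISDD, 382 to 514 in SDDIR, 4813 to 14480 in SDD and 2139 to 4136 in NIL. Of the 6 tested, 1 rose and 5 fell in RISDD against SDD (all tested genes: 20.0% and 22.6%). In SDDIR against SDD 0 of them rose and 4 fell (all tested genes: 8.66% and 13.9%). SDD A, the highest SDD library for 7 of the 10 genes and the lowest for Epha2 and Efnb1, was also the highest for the motor neuron and the fibroblast sums. Pan-neuronal markers summed to 14270 to 15640 in RISDD, 6645 to 6884 in SDDIR, 8304 to 15430 in SDD and 3108 to 5659 in NIL, a sum in which Nefl and Nefm weigh most in RISDD (means of 8956 and 3884). Of the 11 pan-neuronal markers tested, 4 rose and 6 fell in RISDD against SDD (all tested genes: 20.0% and 22.6%). Endothelial markers, 1 to 5 of 10 of them at 0 in each library, summed to 649.7 to 783 in RISDD, 288 to 295 in SDDIR, 151 to 165 in SDD and 109 to 199 in NIL. Leukocyte markers summed to 706 to 1335 in RISDD, 374 to 851 in SDDIR, 589.7 to 1524 in SDD and 3534 to 13700 in NIL. Schwann and neural crest markers summed to 64.3 to 114 in RISDD, 74.5 to 114 in SDDIR, 78.6 to 144 in SDD and 289 to 442 in NIL. The part of these cell types in the Eph and ephrin results was not tested, and in bulk RNA fewer cells of a type cannot be told apart from less RNA per cell.

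To compare levels between genes, scaled counts were divided by the length of the longest annotated transcript. All Eph receptors together summed to 1638 to 1665 scaled counts per kilobase in RISDD, 1016 to 1214 in SDDIR, 1427 to 1886 in SDD and 1294 to 2005 in NIL, so RISDD lay within the range of SDD and of NIL. With the shorter annotated Ephb2 transcript of 4804 bases these sums were 1699 to 1729 in RISDD and 1716 to 2200 in SDD, and RISDD B then lay under every SDD library. The share of Epha2 in that sum was highest in RISDD. Epha2 made up 53.3 to 55.9% of the receptor level in RISDD, 20.7 to 21.4% in SDDIR, 2.74 to 9.03% in SDD and 7.77 to 16.3% in NIL. By mean level per kilobase, Epha2 ranked first among receptors in RISDD (903 ± 27.9, SD, n = 3), ahead of Ephb4 (338 ± 14.7). In SDDIR Ephb4 ranked first (390 ± 44.97, SD, n = 2) and Epha2 second (234 ± 24.5), and in SDD and NIL Ephb4 was first (490 ± 34.5 and 523 ± 200.5, SD, n = 3 each) and Ephb2 second (235 ± 10.4 and 279 ± 94.1). The place of Ephb2 rests on its length: with the shorter annotated transcript of 4804 bases in place of 10902, its mean was 534 ± 23.5 in SDD and 634 ± 214 in NIL, above Ephb4 in mean and within its spread in NIL. With that length Epha2 still made up 51.4 to 53.9% of the receptor level in RISDD. The class A share of all receptors was 62.1 to 64.4% in RISDD, 39.5 to 41.6% in SDDIR, 38.3 to 47.1% in SDD and 21.8 to 38.4% in NIL.

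**Figure D3:**
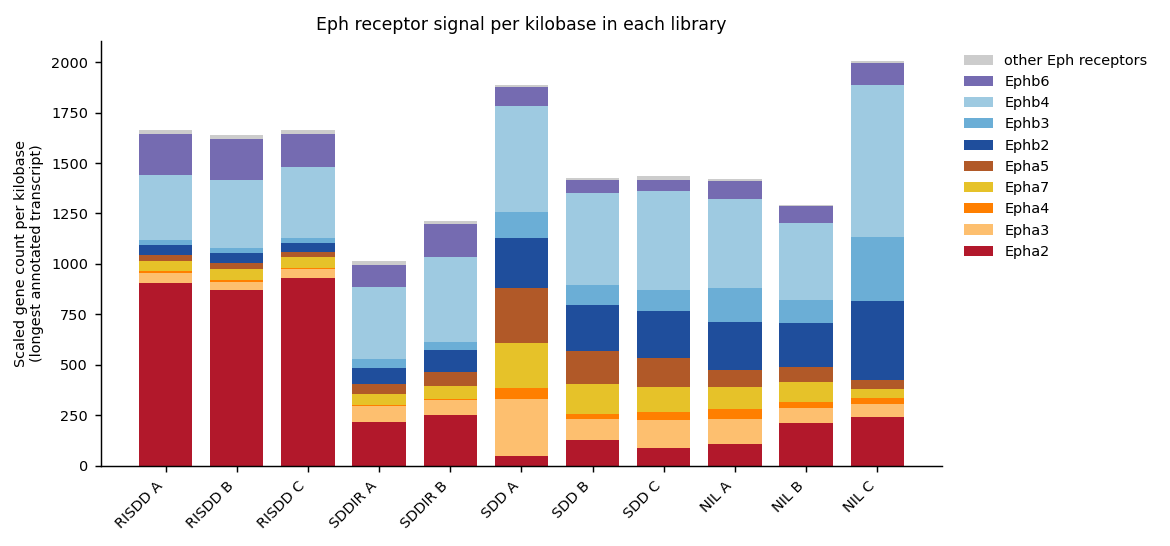
Scaled counts per kilobase (longest annotated transcript) of the Eph receptors, stacked for each of the 11 libraries from RISDD to NIL. The red Epha2 segment fills 53.3 to 55.9% of the RISDD bars and 2.74 to 9.03% of the SDD bars. Bar heights are 1638 to 1665 in RISDD, 1016 to 1214 in SDDIR, 1427 to 1886 in SDD and 1294 to 2005 in NIL. These heights depend on the Ephb2 transcript length used.

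Among the ligands, Efnb2 had the highest mean per kilobase among ephrins in each group, 583 ± 38.7 in RISDD, 376 ± 9.46 in SDDIR (SD, n = 2), 436 ± 63.2 in SDD and 550 ± 30.8 in NIL (SD, n = 3 for the others). Efnb1 came next in RISDD (245 ± 4.57), ahead of Efna5 (207 ± 21.9), whereas Efna5 came ahead of Efnb1 in SDDIR (210 ± 14.3 and 131 ± 13.0), SDD (374 ± 52.3 and 177 ± 6.35) and NIL (309 ± 57.5 and 269 ± 74.6, which overlap). Efna1, at 10.1 ± 3.60 in RISDD, 22.1 ± 2.50 in SDDIR, 39.0 ± 2.73 in SDD and 49.9 ± 13.7 in NIL, ranked sixth or seventh of 8. Class B ligands made up 67.7 to 68.1% of the ephrin level in RISDD, 52.9 to 56.2% in SDDIR, 46.2 to 47.1% in SDD and 52.6 to 54.3% in NIL.

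The other 12 family genes were followed beside the 10, and 10 of them were tested. In RISDD against SDD 2 rose and 4 fell, in SDDIR against SDD 1 rose and 3 fell, in RISDD against SDDIR 1 rose and 1 fell, and in SDD against NIL 2 rose and 0 fell. In RISDD against NIL 4 rose and 5 fell, and in SDDIR against NIL 2 rose and 2 fell. The shares of all tested genes that changed in these 6 comparisons were 42.6%, 22.5%, 9.69%, 17.6%, 46.7% and 33.5%, in the same order. Epha5, a class A receptor of the nervous system close in sequence to Epha3 and Epha7, followed those genes: its scaled counts were 224, 224.5 and 166 in RISDD, 346 and 487 in SDDIR, 1978, 1193 and 1070.2 in SDD, and 644, 569.6 and 332 in NIL. SDD A was again the highest library. Epha5 fell 6.69-fold in RISDD (log2 change -2.74, SE 0.30, adjusted p = 3.87e-05) and 3.31-fold in SDDIR (-1.73, SE 0.33, adjusted p = 0.00405) against SDD, and rose 2.74-fold in SDD against NIL (1.46, SE 0.30, adjusted p = 0.00893). It fell 2.44-fold in RISDD against NIL (-1.28, SE 0.30, adjusted p = 0.00526).

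Ephb6, a receptor whose kinase domain is inactive, went the other way, with 755.7, 774 and 608 scaled counts in RISDD, 415 and 603 in SDDIR, 353, 247 and 204 in SDD, and 347, 318 and 414 in NIL. It rose 2.71-fold in RISDD (1.44, SE 0.22, adjusted p = 4.74e-04) and 1.92-fold in SDDIR (0.94, SE 0.25, adjusted p = 0.0221) against SDD. Against SDD, Ephb6 and Epha2 were thus the receptors above 100 scaled counts that rose with HRAS in both positions. Against NIL, Ephb6 rose 1.98-fold in RISDD (adjusted p = 0.00500). In SDDIR against NIL neither Ephb6 (1.40-fold, adjusted p = 0.163) nor Epha2 (1.31-fold, adjusted p = 0.443) passed. Among low receptors, Epha8 stood at 19.0 to 29.7 in RISDD, 13.6 to 22.5 in SDDIR, 5.64 to 7.37 in SDD and 1.63 to 4.46 in NIL, and it rose 3.30-fold in RISDD against SDD (adjusted p = 0.00876). Against NIL it rose 6.05-fold in RISDD and 4.49-fold in SDDIR (adjusted p = 7.95e-04 and 0.00700). Ephb1 stood at 24.3 to 32.4 in RISDD, 3.56 to 11.01 in SDDIR, 10.6 to 18.4 in SDD and 3.88 to 8.95 in NIL, and it rose in RISDD against SDDIR (adjusted p = 0.0438) and against NIL (adjusted p = 0.00849). Epha1 had no call and reached 48.3 in SDDIR A. Epha6 reached 12.4 in RISDD A, and Epha10 was at 0 in every library but SDDIR B, at 1.19.

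Among the other ligands, Efna5 fell 1.80-fold in RISDD (log2 change -0.85, adjusted p = 0.00201) and 1.77-fold in SDDIR (-0.82, adjusted p = 0.00982) against SDD. Against NIL it fell 1.48-fold in RISDD and 1.45-fold in SDDIR (adjusted p = 0.0181 and 0.04795). Its range was 733 to 903 in RISDD, 806 to 888 in SDDIR, 1332.5 to 1741 in SDD and 980.3 to 1414 in NIL. Efna2 fell 2.63-fold and 2.90-fold in RISDD and SDDIR against SDD (adjusted p = 0.00106 and 0.00287), with 89.0 to 123 in RISDD, 88.9 to 109 in SDDIR, 254 to 357 in SDD and 184 to 330.01 in NIL. Against NIL it fell 2.21-fold in RISDD and 2.435-fold in SDDIR (adjusted p = 0.00359 and 0.00556). Efna3 fell in RISDD against SDD, 2.25-fold (adjusted p = 0.00789), and its values of 27.2 to 31.6 in RISDD lay below 53.4 to 92.5 in SDDIR, 60.0 to 77.4 in SDD and 105 to 183 in NIL. It also fell in RISDD against SDDIR (2.325-fold, adjusted p = 0.0411) and against NIL (4.22-fold, adjusted p = 2.42e-04). Efna4, at 151 to 213 in RISDD, 154 to 218 in SDDIR, 190 to 202 in SDD and 235 to 386 in NIL, fell in RISDD against NIL (1.61-fold, adjusted p = 0.0286). Efna1, Efna3 and Efna4 lie next to each other on chromosome 3 with 0 coding genes between, in RefSeq's gene order. In RISDD against SDD, Efna1 and Efna3 fell while Efna4 stood 1.11-fold lower (adjusted p = 0.638). Efnb3 was at 8.09 to 17.4 in RISDD, 7.11 to 11.9 in SDDIR and 5.64 to 12.6 in SDD, and in NIL it was at 1.63 in NIL A and at 0 in NIL B and C; it rose in each of the 3 groups against NIL (adjusted p = 0.00124, 0.00670 and 0.00864).

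**Figure D4:**
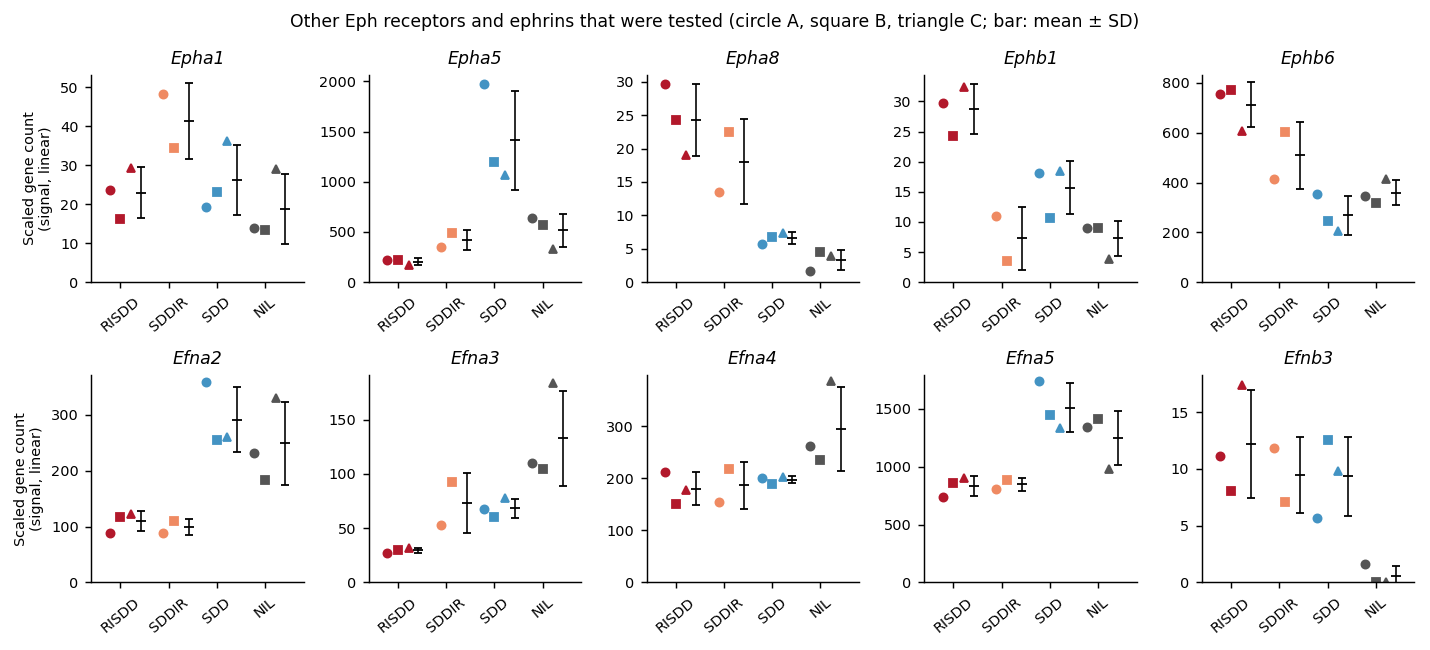
Scaled counts (linear axis from 0) of the 10 other Eph receptors and ephrins that were tested, in each library of RISDD, SDDIR, SDD and NIL, with mean ± SD. Epha5 is at 166 to 224.5 in RISDD and 1070.2 to 1978 in SDD, and Ephb6 shows the opposite order, 608 to 774 in RISDD and 204 to 353 in SDD.

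Downstream of the receptors, 43 of 46 listed adaptors and effectors of Eph and ephrin signalling were tested. In RISDD against SDD 12 rose and 9 fell, where 42.6% of all tested genes changed, with a median log2 change of 0.22 beside 0.02 over all tested genes. In SDDIR against SDD 7 rose and 5 fell, where 22.5% changed (medians 0.11 beside 0.01), and in RISDD against SDDIR 4 rose and 2 fell, where 9.69% changed (0.17 beside 0.01). The shares of the list that changed were thus near those of all genes. Without NIL C these counts were 22 and 11, 14 and 10, and 12 and 6. Over all genes the calls then numbered 8972, 6336 and 4186, against 6046, 3199 and 1377 with it. In RISDD against SDDIR limma called 0 of the 43 without any one RISDD or SDDIR library, with 7 to 9 at an unadjusted p under 0.05. In SDD against NIL 0 rose and 4 fell (10 fell without NIL C), in RISDD against NIL 15 rose and 6 fell, and in SDDIR against NIL 9 rose and 6 fell. The shares of all tested genes that changed were 17.6%, 46.7% and 33.5%, in the same order. Without NIL C, 4114 of all genes were called in SDD against NIL, against 2498 with it.

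Ngef encodes ephexin, an exchange factor that EPHA4 uses to collapse growth cones. It had 369.8, 509.7 and 414 scaled counts in RISDD, 52.5 and 115 in SDDIR, 9.02, 9.67 and 1.84 in SDD, and 4.88, 2.23 and 11.7 in NIL. The groups RISDD, SDDIR and SDD did not overlap. It rose 63.7-fold in RISDD (log2 change 5.99, SE 0.61, adjusted p = 2.66e-05) and 11.7-fold in SDDIR (3.55, SE 0.69, adjusted p = 0.00417) against SDD. Rasa1, the p120 RasGAP that binds active EPHB receptors and inactivates RAS, had 9200, 9497 and 8709 in RISDD, 3172 and 3299 in SDDIR, 1970, 1933 and 1832 in SDD, and 2423, 2905 and 826 in NIL. It rose 4.78-fold in RISDD against SDD (2.26, SE 0.36, adjusted p = 5.82e-04) and 2.82-fold in RISDD against SDDIR (1.4965, SE 0.41, adjusted p = 0.0446), with NIL C far below the other NIL libraries. Grip1, a PDZ scaffold that binds the tail of class B ephrins, rose 3.03-fold in RISDD and 2.21-fold in SDDIR against SDD (adjusted p = 1.90e-04 and 0.00709). Rgs3, which links class B ephrins to G proteins, rose 2.37-fold in SDDIR against SDD (adjusted p = 0.00168), as did Chn1, the Rac GAP alpha-chimaerin that acts under EPHA4 (1.95-fold, adjusted p = 0.00286).

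Among the genes that fell was Kalrn, the exchange factor kalirin that EPHB2 uses in dendritic spines, with 212, 185 and 158 scaled counts in RISDD, 131 and 175.5 in SDDIR, 495, 479 and 372 in SDD, and 382.5, 418 and 398 in NIL. It fell 2.42-fold in RISDD and 2.92-fold in SDDIR against SDD (adjusted p = 2.22e-04 and 4.42e-04), without overlap. Sipa1l1, a Rap GAP that binds EPHA4, had 1473, 1326 and 1119 in RISDD, 1801 and 1956 in SDDIR, 3515, 3602 and 4009 in SDD, and 5075, 4606 and 6114 in NIL. It fell 2.85-fold in RISDD and 1.97-fold in SDDIR against SDD (adjusted p = 1.61e-05 and 0.00174). Itsn1, the Cdc42 exchange factor intersectin that works beside EPHB2, fell 1.93-fold in RISDD against SDD (adjusted p = 1.40e-04) and 1.52-fold in RISDD against SDDIR (adjusted p = 0.0216), and Tiam1, a Rac exchange factor, fell 1.63-fold in SDDIR against SDD (adjusted p = 0.0335). Src and Pak1 were higher in RISDD than in SDDIR, 1.77-fold and 1.52-fold (adjusted p = 0.0421 and 0.0473). In SDD against NIL the kinases Src (1.71-fold) and Pak1 (1.60-fold) and the adaptor Nck2 (1.56-fold) fell (adjusted p = 0.0240, 0.0125 and 0.0167). Against NIL, Vav3 (2.14-fold) rose in SDDIR and Ptpn11 (1.60-fold) fell there (adjusted p = 0.0211 and 0.00107). NIL C stood apart for Vav3, Src and Nck2. In NIL A, B and C they held 442, 477 and 203, then 1258, 1343 and 2267, then 1633, 1642 and 2296 scaled counts.

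**Figure D5:**
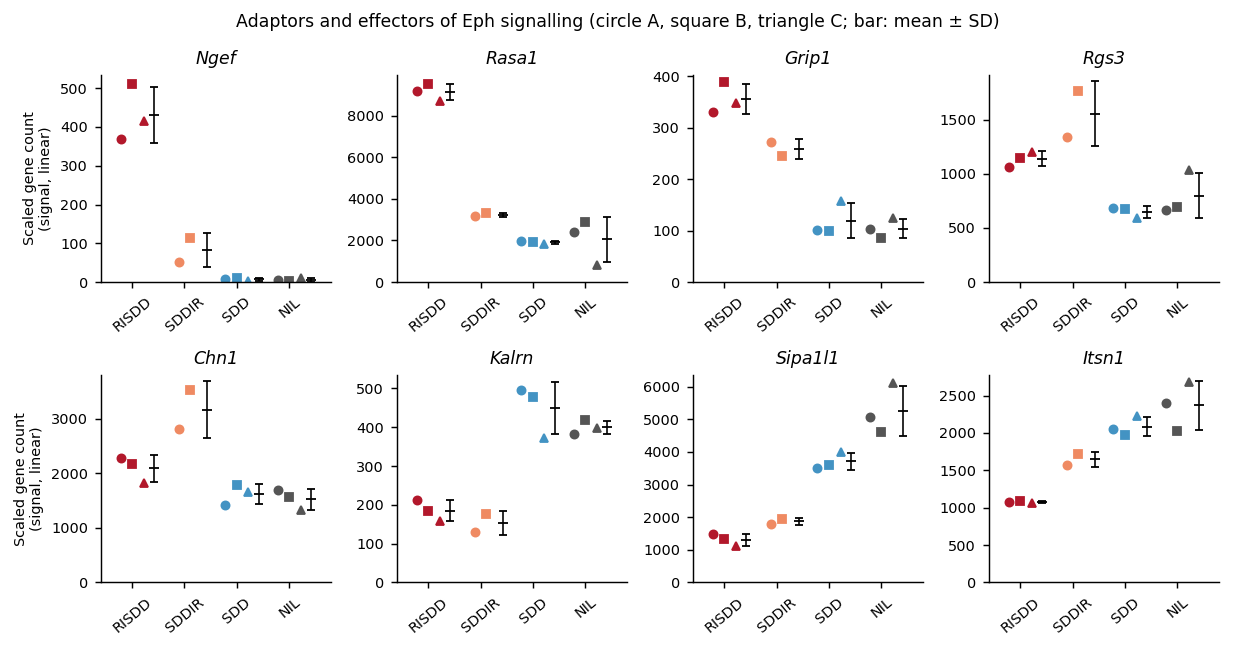
Scaled counts (linear axis from 0) of 8 adaptors and effectors of Eph and ephrin signalling in each library of RISDD, SDDIR, SDD and NIL, with mean ± SD. Ngef and Rasa1 are highest in RISDD, at 369.8 to 509.7 and 8709 to 9497, whereas Kalrn, Sipa1l1 and Itsn1 are lower in RISDD and SDDIR than in SDD.

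Since EPHA2 is tied to RAS and ERK signalling, 15 known output genes of that pathway were set beside it. In RISDD against SDD 8 rose and 1 fell, and in SDDIR against SDD 7 rose and 0 fell, with median log2 changes of 0.56 and 0.74, beside 0.02 and 0.01 over all tested genes, of which 20.0% and 8.66% rose. Dusp5, an ERK phosphatase, held 10300 to 10820 scaled counts in RISDD, 4185 to 4939 in SDDIR, 516 to 633 in SDD and 513.5 to 834 in NIL, and so had the same order as Epha2 over RISDD, SDDIR and SDD; it rose 19.0-fold in RISDD and 8.20-fold in SDDIR against SDD (adjusted p = 9.18e-08 and 1.24e-05) and 2.32-fold in RISDD against SDDIR (adjusted p = 0.00426). Dusp4 and Spry4 rose in both HRAS groups against SDD, by 6.51-fold and 7.33-fold in RISDD and by 7.38-fold and 5.66-fold in SDDIR, and neither passed in RISDD against SDDIR (1.13-fold lower and 1.29-fold higher, adjusted p = 0.697 and 0.235). Spry1 fell 3.17-fold in RISDD against SDD (adjusted p = 1.22e-04). In RISDD against SDDIR 2 of the 15 rose and 2 fell, in RISDD against NIL 10 rose and 2 fell, in SDDIR against NIL 10 rose and 1 fell, and in SDD against NIL 1 rose and 3 fell. The shares of all tested genes that changed were 9.69%, 46.7%, 33.5% and 17.6%, in the same order. The list was chosen with earlier results of these data known, and a link between this pathway and the rise of Epha2 was not tested.

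Genes whose profile over the 11 libraries was most like that of the widest-ranging members were named from 10657 tested genes with a mean of at least 100. The points fall into groups by construct and share their libraries, so these coefficients describe group means more than variation between replicates. For Epha2 the closest were Plaur, the urokinase receptor (Pearson r = 0.994 over 11 libraries), then Abcc1 (0.987), Ecm1 (0.982), Srxn1 (0.981) and Mast4 (0.981). Plaur averaged 2950 scaled counts in RISDD, 585 in SDDIR, 224 in SDD and 619 in NIL. For Ephb3 they were Smo, the Hedgehog pathway transducer (0.995), then Rcn3 (0.994), Tln2 (0.994), Fbxo17 (0.993) and Selenom (0.992). Smo averaged 1015 in RISDD, 1371 in SDDIR, 2397 in SDD and 3068 in NIL, the order that Ephb3 followed.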

How the data were processed

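PolyA RNA-seq of sorted mouse embryonic fibroblasts was analysed from 1 deposited table of gene values. Trim Galore 0.6.10, Salmon 1.10.3 and the GRCm39 build are named in the submitters' processing notes, and the scaling method was not given in the sources used here. Deposited values are a signal: whole gene counts divided by 1 constant per library, since every value of every library is a whole multiple of that library's smallest one (100% at a tolerance of 0.001). The heading of the second SDDIR library appears on 2 columns that are identical in all 23077 rows, and it was counted once under that heading; it may hold the SDDIR C that the labels list. The other column was left out (1 column not used), so 11 libraries enter.

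The 10 genes and all gene lists were chosen with earlier results of these data known. Genes reaching 10 in 3 or more libraries were fitted with limma 3.58.1 (R 4.3.3; trend and robust moderation) on log2(value + 1), with all groups in 1 model, and adjusted by Benjamini-Hochberg over 14207 genes. The steps were tested on simulated data. edgeR 4.0.16 and DESeq2 1.42.0 on the recovered read counts, scalings, filters, weights, a replicate block and leaving out each library were alternatives, and 2 more (a filter on 2 libraries, a GC correction) were added after seeing the data. All 10 genes and all other family genes are named, and from the adaptor list up to 3 changed genes with the largest change per direction and comparison with a mean of at least 100. Ngef in SDDIR against SDD, with a mean under 100, was named after its values were seen. Pathway and marker lists are given by counts or sums, with up to 2 genes per direction; Krt18, Epcam and Cdh1 were also named after their values were seen. Lengths and GC are of the longest GENCODE M21 transcript (GRCm38), for 14177 of the tested genes.

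Replicates carry the letters A to C, which the labels call biological replicates without saying what they share. The p-values of the main fit therefore measure the spread between these samples, estimated over all 4 groups together. Deviations of same-letter libraries from their group means were correlated at 0.105 to 0.325 (3 pairs) between SDD and NIL. They were correlated at 0.0573 to 0.188 between RISDD and SDD and at 0.0904 to 0.325 between RISDD and NIL (3 pairs each). With SDDIR the 2 pairs per comparison ran from -0.1475 to 0.1975. The main fit used groups only, so its p-values leave out any pairing by letter in all of these comparisons. The replicate block, which fits the letters, was an alternative. It called 2777 of all genes in SDD against NIL, 6301 in RISDD against SDD and 6882 in RISDD against NIL. The main fit called 2498, 6046 and 6629. The read totals bound precision to counting error only.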

Additional observations from a re-analysis of the deposited data

How the results depend on the processing

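Of 1500 log2 changes recomputed (10 genes, 6 comparisons, 25 alternatives), 1323 kept their direction and side of the threshold, 101 lost a call, 60 gained one and 16 changed sign, all 16 in comparisons with NIL and none of them called. In SDD against NIL, Epha4 (0.06) became -0.0396 with quantile scaling, -0.0186 with array weights, -0.16 with GC correction and -0.22 to 0.37 with single libraries left out. There Ephb2 (-0.20) became 0.0226 with array weights, 0.0125 with GC correction and -0.36 to 0.0635 with libraries left out, and Ephb4 (-0.03) became 0.23, 0.24 and -0.23 to 0.27. Epha3 in SDDIR against NIL (-0.12) ran from -0.32 to 0.15 with libraries left out, and Efnb1 in RISDD against NIL (-0.10) became 0.10 with array weights, 0.16 with GC correction and -0.22 to 0.12. The cause was not tested.

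The number of the 10 genes called in SDD against NIL (3) was 0 with no filter, with no trend or robust moderation, with array weights and with only these groups, 6 with DESeq2 and 0 to 4 with libraries left out. In SDDIR against SDD (5) it was 8 with array weights, only these groups or GC correction, and 2 to 8 with libraries left out. In RISDD against SDDIR (4) it was 7 with array weights and 0 to 6 with libraries left out, in SDDIR against NIL (6) 3 with only these groups, and in RISDD against NIL (5) 8 with GC correction and 5 to 8 with libraries left out. In RISDD against SDD (9) it stayed between 7 and 10.

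Over all tested genes, SDD against NIL (2498) gave 697 with only these groups, 3844 with GC correction and 1226 to 4114 with libraries left out. SDDIR against SDD (3199, of which 38.5% higher) gave 6902 with array weights, 5361 with only these groups, 5189 with GC correction, 1673 to 6336 with libraries left out, and 49.0% higher with quantile scaling. RISDD against SDD (6046) gave 9781 with array weights. RISDD against SDDIR (1377) gave 5346 with array weights, 4923 with only these groups, 2258 with DESeq2, 3026 with GC correction and 308 to 4186, and SDDIR against NIL (4759) gave 1590 with only these groups and 2347 to 6868. Where 1 SDDIR library was left out, the other was assumed to vary like the other groups.

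With the replicate block the 10 genes had 4 calls in SDD against NIL, 6 in SDDIR against SDD, 9 in RISDD against SDD, 4 in RISDD against SDDIR, 5 in SDDIR against NIL and 7 in RISDD against NIL. Between RISDD and SDD, RISDD and NIL, and SDD and NIL, each of 6 libraries correlated best with its own letter in the other group. What libraries of the same letter share is not given in the labels. Efna1, with 9.89 to 104 scaled counts, is the member that depth limits most.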
